A study of Mus musculus with 24 samples.

Results

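The 10 genes described here encode secreted proteins of the extracellular matrix: the matricellular proteins Sparc, Postn, Tnc, Thbs1 and Thbs2, the olfactomedin-like glycoprotein Olfml3, the fibulins Fbln1, Fbln2 and Fbln5, and the fibronectin gene Fn1. They were taken by symbol and are 10 of the 52089 gene symbols in the table. For each symbol the RefSeq mRNA entry with the highest mean RPKM (reads scaled by transcript length and by the mapped reads of the library) over the 24 libraries was used, so the entries were chosen by their mean level, which is given as a description with no test. The genes themselves were selected on family membership with earlier results of these libraries known, among them the higher level of Olfml3 in control cells at 72 h, and for that difference no p-value is given.

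The cells were primary adipocytes of 129SvEv mice, obtained from stromal vascular cells of the inguinal depot and differentiated with rosiglitazone into brite adipocytes, white fat cells that take on features of brown fat. Soon after induction all cultures were transfected with 50 nM of a gapmer, an oligonucleotide with locked nucleic acid ends whose DNA core lets RNase H cut the matching RNA. In the groups KD 24 h and KD 72 h the gapmer targeted the long noncoding RNA Ctcflos (1300015D01Rik), and in NC 24 h and NC 72 h it was a nontargeting control, so that a control here is a transfected culture and not an untreated one. RNA was harvested 24 h or 72 h after transfection, with 6 libraries in each group. The labels do not say which gapmer sequence was used in these libraries, nor whether libraries came from separate cultures, so p-values measure the spread between these samples.

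Matricellular proteins sit in the matrix without building its main fibres. They bind collagens, growth factors and cell surface receptors, and they change how firmly cells hold to the matrix. Fibulins are glycoproteins rich in calcium-binding EGF-like modules that join elastic fibres and basement membranes, and fibronectin forms the early fibrils on which cells and other matrix proteins assemble. In adipose tissue these genes are known mainly from preadipocytes and stromal cells, and remodelling of the matrix accompanies the change of a spread fibroblast into a rounded fat cell.

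Libraries held 1391831 to 5423839 reads as recovered from the table, at a median of 3945866. For a transcript of 2 kb, 3 reads were worth 0.277 to 1.08 RPKM. The values of NC 72 h replicates 2 and 3 differed by less than sampling noise and were averaged to 1 sample, so NC 72 h had n = 5 and 23 samples entered the fits. Once group means were taken out, the libraries fell into 2 clusters, the larger with 16 libraries and the smaller with 8, of which 2 came from each group. The labels give no batch for these clusters, and values within each are given beside the results. Since the clusters were drawn from these same expression values, the spread within them is reduced. Adjusted p-values and calls within a cluster can therefore be too favourable and serve as a description. Levels of Ctcflos (entry AK079954) were 1.71 ± 0.94 scaled RPKM (SD, n = 6) in NC 24 h and 0.23 ± 0.35 (n = 6) in KD 24 h, and 2.78 ± 0.92 (n = 5) in NC 72 h and 0.30 ± 0.35 (n = 6) in KD 72 h. The KD means lie about the worth of 3 reads, so the size of the fall is imprecise. Of the 3 genes listed as Ctcflos and its neighbours, 1 could be tested in each KD comparison and 0 were called. Other transcripts of Ctcflos are not shown.

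All 10 genes were detected in every library and passed the filter on low values in every comparison, so no member was left out. Sparc was the most abundant per length, with group means of scaled RPKM from 1068 to 2123, followed by Postn with 228 to 380. Fbln2, Thbs2, Olfml3, Fn1 and Thbs1 had group means between 28.2 and 141 scaled RPKM, and Tnc had 8.88 to 18.0. Fbln1 and Fbln5 were the lowest, with group means between 0.74 and 1.74 scaled RPKM. These libraries read the 3′ ends of transcripts while RPKM divides by the whole transcript length, so the order between genes is rough. The entry of Fbln1 rested on 5 to 35 reads per library and that of Fbln5 on 8 to 68, and both are correspondingly imprecise.

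**Figure D1:**
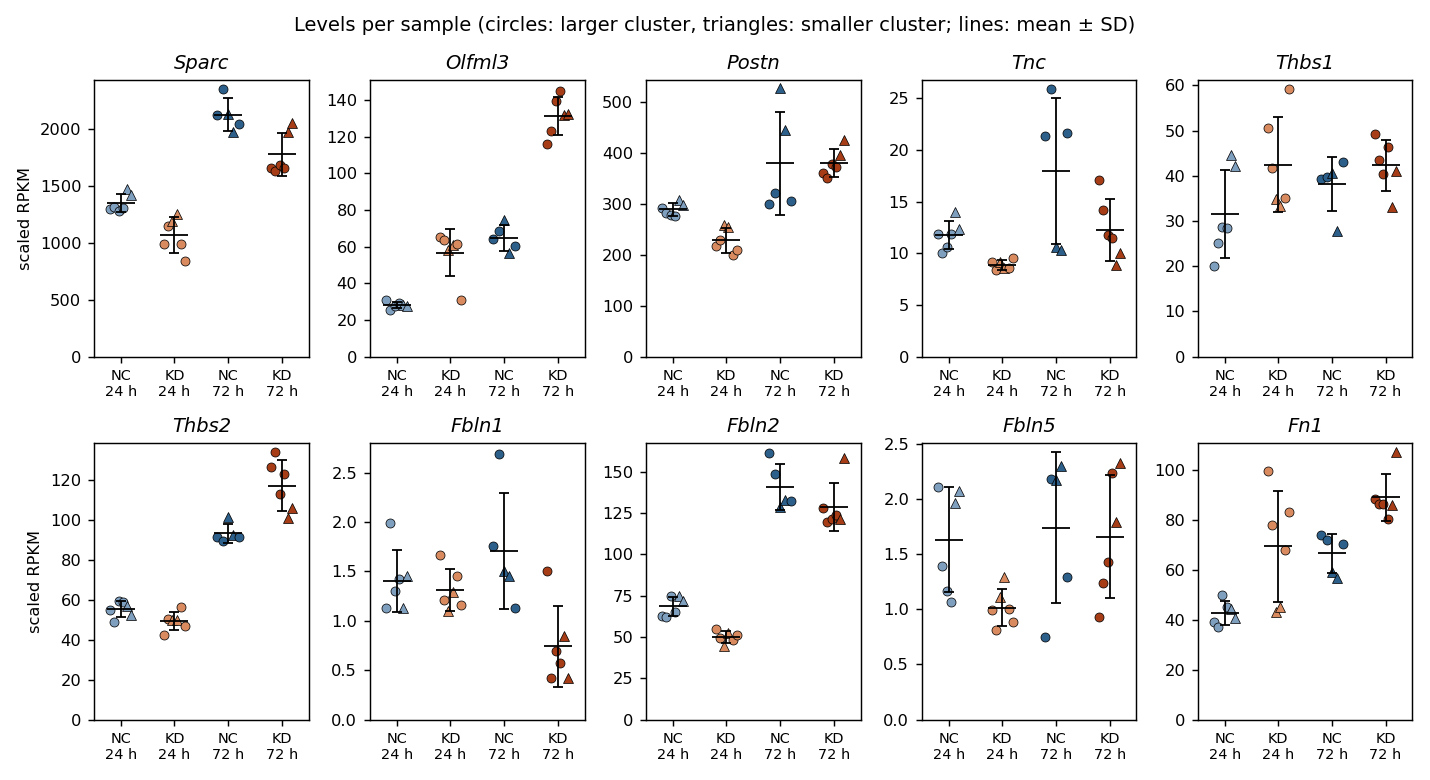
Level of each of the 10 genes in every sample, as scaled RPKM on linear axes that start at 0, for NC 24 h, KD 24 h, NC 72 h and KD 72 h. Circles are libraries of the larger cluster, triangles those of the smaller cluster, and lines give the mean ± SD. For Olfml3 the 6 KD 72 h libraries, from 115.8 to 145.0, lie above all others, whereas the samples of Thbs1 overlap in all 4 groups.

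In GENCODE release M21 (GRCm38), a build that may not be the one of the files, the genes span Sparc (NM_009242) at chr11:55394500-55423183, Olfml3 (NM_133859) at chr3:103722222-103738001, Postn (NM_001198766) at chr3:54361109-54391037 and Tnc (NM_011607) at chr4:63959785-64047015. The thrombospondin genes span Thbs1 (NM_011580) at chr2:118111876-118127133 and Thbs2 (NM_011581) at chr17:14665500-14694235. The fibulin and fibronectin genes span Fbln1 (NM_010180) at chr15:85205949-85286535, Fbln2 (NM_001081437) at chr6:91212455-91272540, Fbln5 (NM_011812) at chr12:101746565-101819055 and Fn1 (NM_010233) at chr1:71585520-71653200.

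Promoter windows from 250 bases before to 50 bases after the transcription start were found for 8 of the 10 genes in RefSeq (GRCm38.p6), 12 windows in all. The windows below belong to Olfml3, Fbln2, Thbs2 and Sparc, the 4 genes with the largest log2 fold changes from NC 24 h to NC 72 h, and are printed 5′ to 3′ on the strand of the gene to show how unlike they are. Capitals mark matches, on either strand, to short promoter motifs. The TATA box was searched as TATAAA and the CCAAT box by its name. The GC box was searched as GGGCGG. For an AP-1 site the letters were TGAGTCA. For a TEAD site they were GGAATG.
Olfml3, chr3:103737952-103738251, minus strand: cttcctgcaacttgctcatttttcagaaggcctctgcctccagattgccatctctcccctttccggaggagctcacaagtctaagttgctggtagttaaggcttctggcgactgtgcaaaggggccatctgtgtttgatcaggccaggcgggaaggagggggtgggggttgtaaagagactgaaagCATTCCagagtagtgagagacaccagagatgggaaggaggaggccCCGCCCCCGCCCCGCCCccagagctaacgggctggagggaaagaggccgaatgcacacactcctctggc
Fbln2, chr6:91212514-91212813, plus strand: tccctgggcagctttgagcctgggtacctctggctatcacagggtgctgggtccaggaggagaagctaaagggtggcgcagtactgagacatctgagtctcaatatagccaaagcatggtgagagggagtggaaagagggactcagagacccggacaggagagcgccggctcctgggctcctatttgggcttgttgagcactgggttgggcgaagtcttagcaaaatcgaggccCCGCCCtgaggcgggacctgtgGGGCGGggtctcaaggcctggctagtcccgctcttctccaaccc
Thbs2, chr17:14694213-14694512, minus strand: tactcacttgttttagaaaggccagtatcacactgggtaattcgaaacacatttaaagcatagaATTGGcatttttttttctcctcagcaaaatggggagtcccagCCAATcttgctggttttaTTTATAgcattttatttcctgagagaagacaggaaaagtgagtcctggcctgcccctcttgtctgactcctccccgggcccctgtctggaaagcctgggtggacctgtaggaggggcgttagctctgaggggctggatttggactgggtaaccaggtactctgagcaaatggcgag
Sparc, chr11:55420031-55420330, minus strand: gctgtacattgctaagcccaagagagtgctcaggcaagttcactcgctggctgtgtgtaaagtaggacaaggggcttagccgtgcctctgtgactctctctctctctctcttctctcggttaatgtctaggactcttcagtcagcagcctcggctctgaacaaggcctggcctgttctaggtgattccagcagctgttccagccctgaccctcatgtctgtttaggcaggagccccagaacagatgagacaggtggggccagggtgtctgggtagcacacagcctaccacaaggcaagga
The window of Olfml3 held 3 GC box matches and 1 TEAD match, that of Fbln2 held 2 GC box matches, that of Thbs2 held 1 TATA box and 2 CCAAT box matches, and that of Sparc held none of the 5. Among all 32851 RefSeq promoter windows of this length, 35.7% held the GC box letters, 37.4% CCAAT, 13.6% TATAAA, 14.7% GGAATG and 5.2% TGAGTCA. The TGAGTCA letters were in 0 of the 12 windows. Some matches overlap, as in the run of GC boxes of Olfml3, and a match describes the letters only.

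The comparison of NC 72 h with NC 24 h asked how these genes differed between the 2 harvest times of the transfected control cells. Time in differentiation and time since transfection cannot be told apart in it. Olfml3, whose higher level at 72 h was known when the genes were selected, is described without a test and left out of the count. Of the other 9 genes, 4 were higher at 72 h (Fbln2, Thbs2, Sparc and Fn1) and 0 were lower, beside 9.19% of all 52578 entries called (4.65% higher and 4.54% lower). For each of those 4 the samples of the 2 groups did not overlap, but how often this held among all entries was not counted. The median log2 fold change over the 10 genes, Olfml3 included, was 0.58, and that over all entries tested was 0.006. In a bulk sample, fewer cells of a type and less RNA per cell cannot be told apart, so each value is a level over all cells of a culture.

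Sparc, a collagen-binding glycoprotein known to restrain adipocyte differentiation, ranged from 1275 to 1471 scaled RPKM in NC 24 h, with a median of 1309. The NC 72 h samples had 2122, 2352, 2128, 1969 and 2045. Sparc rose by 0.67 ± 0.06 on the log2 scale (SE, adjusted p = 2.5e-05, limma), and the lowest sample at 72 h lay well above the highest at 24 h.

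Olfml3, a secreted matrix glycoprotein, ranged from 25.7 to 30.8 scaled RPKM in NC 24 h, with a median of 27.9. The NC 72 h samples had 64.4, 68.3, 74.7, 56.5 and 60.6. Its log2 fold change was 1.20 ± 0.09, the highest of the 10 genes, and the groups lay far apart.

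Fbln2, a fibulin of basement membranes and elastic fibres, ranged from 62.2 to 75.0 scaled RPKM in NC 24 h, with a median of 68.3. The NC 72 h samples had 161.5, 148.8, 128.8, 133.1 and 132.2. Fbln2 rose, with a log2 fold change of 1.05 ± 0.08 (adjusted p = 1.2e-05). The other fibulins were at 1.40 ± 0.32 (Fbln1) and 1.63 ± 0.48 (Fbln5) scaled RPKM in NC 24 h, against 1.71 ± 0.59 and 1.74 ± 0.68 in NC 72 h. Their fold changes of 0.24 ± 0.25 (Fbln1, adjusted p = 0.62) and 0.04 ± 0.31 (Fbln5, adjusted p = 0.95) did not pass the test at their low read numbers.

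Thbs2, a thrombospondin that binds CD36 and CD47 at the cell surface, ranged from 49.0 to 59.5 scaled RPKM in NC 24 h, with a median of 55.9. The NC 72 h samples had 91.6, 89.4, 101.3, 92.5 and 91.4, and Thbs2 rose by 0.76 ± 0.08 (adjusted p = 5.6e-05). Its paralog Thbs1, an activator of latent TGF-beta, ranged from 20.1 to 44.6 scaled RPKM in NC 24 h and had 39.4, 39.8, 40.6, 27.8 and 43.0 in NC 72 h. The 2 groups overlapped for Thbs1, with a fold change of 0.32 ± 0.19 that did not pass the test (adjusted p = 0.34).

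Fn1 ranged from 37.1 to 50.0 scaled RPKM in NC 24 h, with a median of 42.5, and had 74.2, 72.2, 59.4, 57.0 and 70.4 in NC 72 h. Fn1 rose by 0.65 ± 0.10 (adjusted p = 9.9e-04). Postn, a collagen-organising protein of stromal cells, ranged from 276 to 307 scaled RPKM in NC 24 h and had 299.4, 321.5, 526.2, 444.4 and 304.9 in NC 72 h. Tnc, a large matrix protein known from wounds and remodelling tissue, ranged from 10.1 to 14.0 scaled RPKM in NC 24 h and had 21.4, 25.9, 10.6, 10.4 and 21.6 in NC 72 h. The spread of Postn and Tnc at 72 h was wide, and neither passed the test (0.37 ± 0.13, adjusted p = 0.11, and 0.52 ± 0.22, adjusted p = 0.18).

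That spread followed the clusters of libraries. Within the larger cluster the log2 fold change of Tnc was 1.04 ± 0.14 (adjusted p = 7.5e-04), and within the smaller cluster it was -0.31 ± 0.20 (adjusted p = 0.50). Thbs1 likewise had 0.68 ± 0.14 (adjusted p = 0.0085) in the larger and -0.35 ± 0.19 (adjusted p = 0.40) in the smaller cluster. Postn went the other way, with 0.13 ± 0.06 (adjusted p = 0.24) in the larger and 0.69 ± 0.10 (adjusted p = 0.011) in the smaller cluster. Sparc (0.74 and 0.52), Fbln2 (1.15 and 0.85) and Thbs2 (0.71 and 0.84) were higher at 72 h in both clusters, and Fn1 had 0.76 and 0.46, the latter at an adjusted p of 0.12. Olfml3 had 1.18 and 1.23, given as a description. The smooth muscle actin gene Acta2 also differed between the clusters, with 359 to 414 scaled RPKM in the larger and 981 to 1114 in the smaller cluster of NC 24 h, and 238 to 271 against 508 to 748 in NC 72 h. The difference between clusters was not tested, and what the clusters are cannot be told from the labels.

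Markers of cell types were followed over the same time. All 10 adipocyte markers were detected in every group, with none at 0. Of these, 0 were higher and 2 were lower at 72 h (Adipoq and Fabp4), and their summed level went from 51230 to 53710 scaled RPKM in NC 24 h to 37360 to 48980 in NC 72 h. Of 7 fibroblast and progenitor markers tested, 1 was higher (Thy1) and 1 was lower (Lum), at summed levels of 816 to 1532 and 701 to 1910. The macrophage receptor gene Csf1r and the mesothelial gene Wt1 were higher at 72 h, as 1 of 2 and 1 of 1 tested markers of their lists, whose summed levels were at most 29.9 and 12.5 scaled RPKM. None of the 5 pericyte and smooth muscle markers tested passed, at 511 to 1489 and 361 to 1087. The part of these markers in the values of the matrix genes was not tested.

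**Figure D2:**
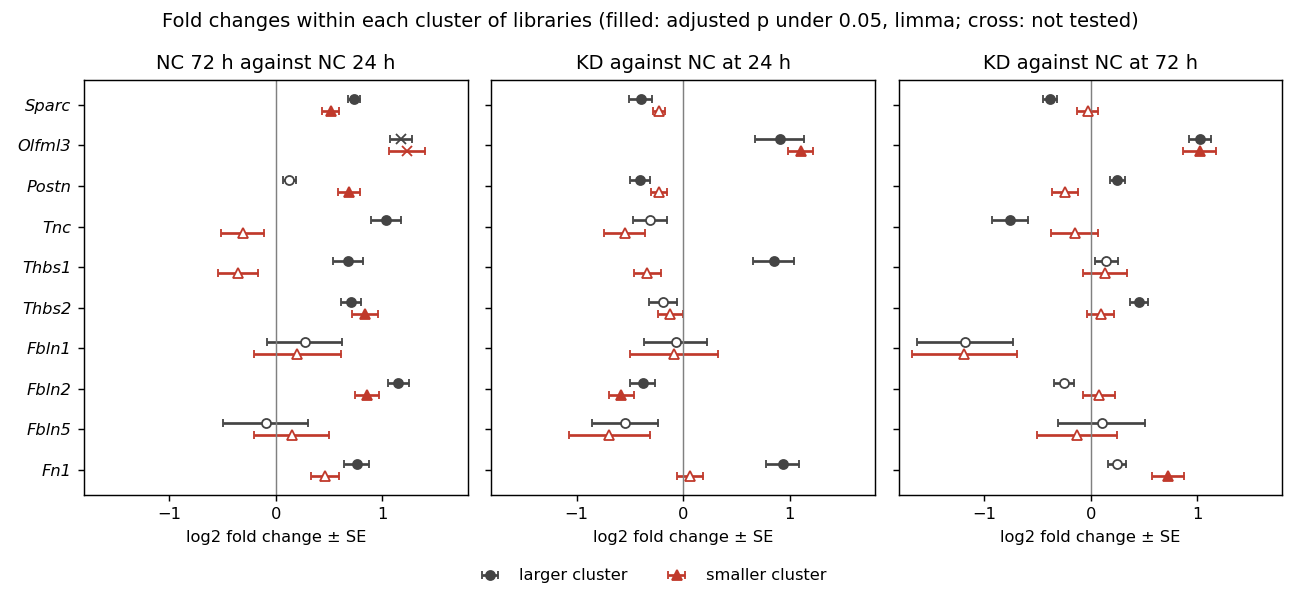
Log2 fold change ± SE of each of the 10 genes fitted within the larger cluster (grey circles) and within the smaller cluster (red triangles) of libraries, for the 3 comparisons, with filled symbols where the adjusted p-value of limma was under 0.05 and crosses for Olfml3 over time, which was not tested. Olfml3 had nearly the same value in both clusters in every comparison, whereas Tnc and Thbs1 lay on opposite sides of 0 over time, at 1.04 against -0.31 and at 0.68 against -0.35.

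The comparison of KD 24 h with NC 24 h asked how the genes stood 24 h after Ctcflos was targeted. Of the 10 genes, 2 were higher in KD (Olfml3 and Fn1) and 4 were lower (Fbln2, Postn, Sparc and Tnc), beside 21.8% of 53874 entries called (10.6% higher and 11.2% lower). The median log2 fold change was -0.24 over the 10 genes and -0.01 over all entries. This comparison uses the same NC 24 h libraries as the comparison over time, so the 2 sets of values are not independent. Where groups are said below to lie apart, how often this held among all entries was not counted. Such separation is given as a description.

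Olfml3 ranged from 31.1 to 65.5 scaled RPKM in KD 24 h, with a median of 61.0. Its level was higher than in NC 24 h by 0.98 ± 0.16 on the log2 scale (adjusted p = 0.0014). The rise of Olfml3 over time that was known at selection rests in part on the same NC 24 h libraries. The selection can therefore favour this call, and its p-value can be too small. The lowest KD library, replicate 6, was the shallowest of the series, and it still lay just above the highest NC library at 30.8.

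Fbln2 ranged from 44.8 to 54.8 scaled RPKM in KD 24 h, with a median of 50.2, and fell by 0.44 on the log2 scale (SE 0.10, adjusted p = 0.0065). All KD libraries lay below all NC libraries. Postn ranged from 198 to 259 scaled RPKM in KD 24 h, with a median of 223, and fell by 0.33 (SE 0.09, adjusted p = 0.017), also without overlap.

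Sparc ranged from 839 to 1253 scaled RPKM in KD 24 h, with a median of 1068, and its fold change was -0.33 ± 0.10 (adjusted p = 0.031). Tnc ranged from 8.34 to 9.52 scaled RPKM in KD 24 h, with a median of 8.86, and its fold change was -0.38 ± 0.13 (adjusted p = 0.046). For both genes the groups lay apart, but the calls were marginal. The call of Sparc was lost without KD replicate 1 or 5 or without NC replicate 1, 2, 4, 5 or 6, with adjusted p-values up to 0.067. The call of Tnc was lost without any library other than KD replicate 6 or NC replicate 2, with adjusted p-values up to 0.098.

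Fn1 ranged from 43.0 to 99.7 scaled RPKM in KD 24 h, with a median of 73.0, and was higher than in NC 24 h by 0.65 ± 0.19 (adjusted p = 0.025). Its groups overlapped, since the 2 KD libraries of the smaller cluster had 43.0 and 45.3 and the other 4 had 67.9 to 99.7. Within the larger cluster the fold change of Fn1 was 0.93 ± 0.15 (adjusted p = 0.0026), and within the smaller cluster it was 0.07 ± 0.12 (adjusted p = 0.81). The call was also lost without KD replicate 1 or 2 or NC replicate 1 or 2, with adjusted p-values up to 0.059.

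The remaining 4 genes did not pass the test at 24 h. Thbs1 ranged from 33.2 to 59.2 scaled RPKM in KD 24 h (0.46 ± 0.20, adjusted p = 0.12). Its value was 0.85 ± 0.19 (adjusted p = 0.010) in the larger and -0.34 ± 0.12 (adjusted p = 0.19) in the smaller cluster. Thbs2 had 49.3 ± 4.49 scaled RPKM (SD, n = 6; -0.15 ± 0.10, adjusted p = 0.28), Fbln1 had 1.31 ± 0.21 (-0.07 ± 0.22, adjusted p = 0.85) and Fbln5 had 1.02 ± 0.17 (-0.58 ± 0.24, adjusted p = 0.093). In the larger and the smaller cluster, the fold changes were 0.90 and 1.10 for Olfml3, -0.38 and -0.58 for Fbln2, -0.40 and -0.23 for Postn, -0.40 and -0.23 for Sparc and -0.31 and -0.55 for Tnc. Of these, Olfml3 and Fbln2 were called in both clusters, Postn and Sparc in the larger alone (adjusted p = 0.15 and 0.088 in the smaller) and Tnc in neither.

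Levels of adipocyte and macrophage markers moved beside these values. Of 10 adipocyte markers tested, 0 were higher and 4 were lower in KD 24 h (Cebpa, Adipoq, Pparg and Lipe), and their summed level was 37830 to 50910 scaled RPKM in KD 24 h against 51230 to 53710 in NC 24 h, with none at 0. Adipoq, the gene of the adipocyte hormone adiponectin, had 1254 to 1740 scaled RPKM in the larger and 2493 to 2528 in the smaller cluster of KD 24 h, against 2545 to 2606 and 2739 to 2765 in NC 24 h. The summed level of 6 pericyte and smooth muscle markers was 184 to 865 scaled RPKM in KD 24 h and 511 to 1489 in NC 24 h, and 0 of the 4 that could be tested passed. The 10 fibroblast and progenitor markers summed to 805 to 1246 in KD 24 h and 816 to 1532 in NC 24 h, and 0 of 8 tested passed. Of the macrophage markers, 1 of 2 tested was higher in KD 24 h, the receptor gene Csf1r (1.22 ± 0.27, adjusted p = 0.0066), at 3.42 ± 1.10 scaled RPKM against 1.41 ± 0.45 (SD, n = 6) in NC 24 h. The other tested marker went the opposite way without being called, and the median log2 fold change of the 2 was -0.59. The 6 listed macrophage markers summed to 2.59 to 18.3 scaled RPKM in KD 24 h, with Mrc1 at 0 in all 6 libraries, and to 4.67 to 27.5 in NC 24 h. The part of these shifts in the values of the matrix genes was not tested.

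**Figure D3:**
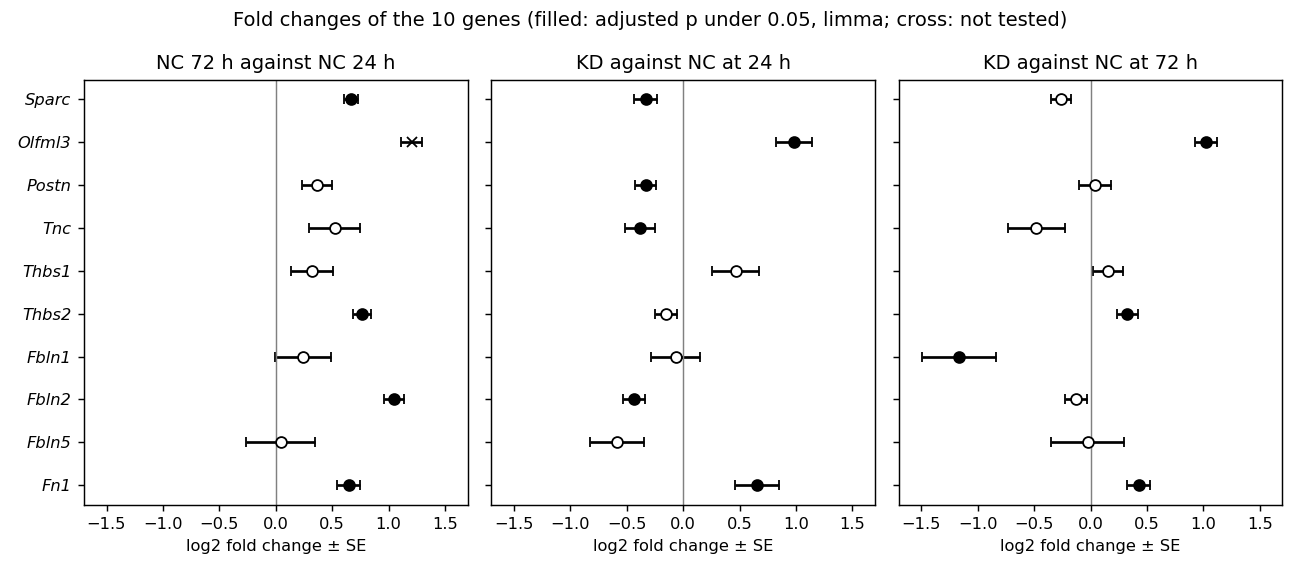
Log2 fold change ± SE of the 10 genes for NC 72 h against NC 24 h, KD against NC at 24 h and KD against NC at 72 h, with filled points where the adjusted p-value of limma was under 0.05 and a cross for Olfml3 over time, which was not tested. Over time all 10 values were above 0, and 4 of the 9 other genes were called. Under KD the genes split, with Olfml3 at 0.98 and 1.02 and Fbln1 at -1.17 at 72 h.

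At 72 h, 3 of the 10 genes were higher in KD (Olfml3, Fn1 and Thbs2) and 1 was lower (Fbln1), beside 22.6% of 53963 entries called (10.4% higher and 12.1% lower). The median log2 fold change was 0.007 over the 10 genes and 0.007 over all entries. How often the samples of the 2 groups lay apart among all entries was not counted at 72 h either. Scaling mattered most here, since the deposited values without scaling lay 0.25 higher on the log2 scale in KD than the scaled ones, and changes at 72 h are relative to that shift. On the deposited scale, 13142 entries were called higher and 3100 lower, beside 5631 and 6541 after scaling.

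Olfml3 ranged from 115.8 to 145.0 scaled RPKM in KD 72 h, with a median of 132.2, and was higher than in NC 72 h by 1.02 ± 0.09 on the log2 scale (adjusted p = 1.1e-05). No KD library came near the highest NC sample of 74.7, and the value was 1.02 in both clusters. Olfml3 was thus lowest in NC 24 h, higher in KD 24 h and NC 72 h, whose samples overlapped, and highest in KD 72 h.

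Fn1 ranged from 80.4 to 107.5 scaled RPKM in KD 72 h, with a median of 86.4, and was higher by 0.42 ± 0.10 (adjusted p = 0.0097), without overlap. In the larger cluster its value was 0.25 ± 0.09 (adjusted p = 0.057), and in the smaller cluster it was 0.72 ± 0.15 (adjusted p = 0.017). Thbs2 ranged from 100.7 to 133.9 scaled RPKM in KD 72 h, with a median of 117.8, and was higher by 0.33 ± 0.09 (adjusted p = 0.024). Its lowest KD library lay just under the highest NC sample of 101.3. Its value was 0.45 ± 0.09 (adjusted p = 0.0031) in the larger and 0.09 ± 0.13 (adjusted p = 0.71) in the smaller cluster. The call of Thbs2 was lost without KD replicate 1 or 2 or without NC replicate 1, the averaged 2 and 3, or 6, with adjusted p-values up to 0.057.

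Fbln1, a fibulin that binds fibronectin, ranged from 0.417 to 1.501 scaled RPKM in KD 72 h, with a median of 0.63, against 1.76, 2.69, 1.51, 1.46 and 1.13 in NC 72 h. Its fold change was -1.17 ± 0.33 (adjusted p = 0.020), with 5 of the 6 KD libraries below every NC sample. The fold change was -1.18 in both clusters (adjusted p = 0.077 in the larger and 0.17 in the smaller). Without the averaged NC replicates 2 and 3, which hold the highest value, it was -1.01 (adjusted p = 0.057).

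Sparc ranged from 1633 to 2049 scaled RPKM in KD 72 h, and its fold change of -0.26 ± 0.09 missed the threshold (adjusted p = 0.051). It passed without KD replicate 5 or 6, with adjusted p-values down to 0.027, and it was -0.38 ± 0.07 (adjusted p = 0.0022) in the larger and -0.03 ± 0.10 (adjusted p = 0.90) in the smaller cluster. Tnc ranged from 8.91 to 17.1 scaled RPKM in KD 72 h (-0.48 ± 0.25, adjusted p = 0.19), with -0.75 ± 0.17 (adjusted p = 0.0076) in the larger and -0.15 ± 0.22 (adjusted p = 0.73) in the smaller cluster. The other 4 genes did not pass, with 380 ± 26.8 scaled RPKM for Postn (0.04 ± 0.14, adjusted p = 0.87), 42.3 ± 5.59 for Thbs1 (0.16 ± 0.13, adjusted p = 0.43), 129 ± 14.8 for Fbln2 (-0.13 ± 0.10, adjusted p = 0.36) and 1.66 ± 0.56 for Fbln5 (-0.03 ± 0.32, adjusted p = 0.97). Without scaling, Thbs1 passed at 0.41 (adjusted p = 0.031), Sparc was at -0.01 (adjusted p = 0.95), Postn at 0.29 (adjusted p = 0.17) and Tnc at -0.23 (adjusted p = 0.49), and the sign turned for Fbln2 and Fbln5, to 0.12 and 0.21. Postn had 0.25 ± 0.07 (adjusted p = 0.024) in the larger and -0.24 ± 0.12 (adjusted p = 0.24) in the smaller cluster.

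Marker levels also differed at 72 h. Of 10 adipocyte markers, 0 were higher and 6 were lower in KD 72 h (Retn, Adipoq, Pnpla2, Fabp4, Cebpa and Lpl), with a summed level of 26620 to 36450 scaled RPKM against 37360 to 48980 in NC 72 h. Of 8 fibroblast and progenitor markers tested, 3 were higher (Cd34, Lum and Pdgfrb) and 0 were lower. Their 10 listed genes summed to 1085 to 1459 scaled RPKM in KD 72 h, with Dpp4 at 0 in all 6 libraries, and to 701 to 1910 in NC 72 h. The pericyte and smooth muscle markers summed to 271 to 374 in KD 72 h and 361 to 1087 in NC 72 h, and 1 of 5 tested was lower (Tagln). Of the 2 macrophage markers tested, Csf1r was higher (1.24 ± 0.25, adjusted p = 0.0031) and the lysozyme gene Lyz2 was lower (-3.68 ± 0.59, adjusted p = 6.5e-04). Their list summed to 5.58 to 10.5 scaled RPKM in KD 72 h and 7.80 to 29.9 in NC 72 h. Of the mesothelial markers, 0 could be tested at 24 h and 0 of 1 passed at 72 h. Endothelial markers summed to at most 3.03 scaled RPKM and epithelial markers to at most 1.56 in any sample of the 4 groups. The part of these markers in the values of the matrix genes was not tested.

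Whether the KD effect differed between the times was tested with an interaction term over all groups. Of the 10 genes, 0 were called, beside 0.194% of 59429 entries, and 4 had an unadjusted p-value under 0.05. Those were Thbs2 (0.49 ± 0.13, adjusted p = 0.11), Fbln1 (-1.09 ± 0.38, adjusted p = 0.24), Fbln2 (0.32 ± 0.13, adjusted p = 0.33) and Postn (0.39 ± 0.17, adjusted p = 0.36), where a positive value means a higher KD effect at 72 h. For Olfml3 the difference was 0.05 ± 0.20 (adjusted p = 0.95). Within the larger cluster Postn was called (0.65 ± 0.11, adjusted p = 0.0072), and in the smaller cluster it was at -0.01 ± 0.13 (adjusted p = 0.98). Fn1 had -0.69 ± 0.18 (adjusted p = 0.065) in the larger and 0.66 ± 0.19 (adjusted p = 0.11) in the smaller cluster. The calls of Fbln2, Postn, Sparc and Tnc at 24 h and of Thbs2 and Fbln1 at 72 h are therefore not shown to belong to their time alone.

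The table lists several overlapping entries for each gene, which share reads. For Olfml3 all 4 tested entries were called higher under KD at both times, between 0.95 and 0.99 on the log2 scale at 24 h and between 1.01 and 1.03 at 72 h. For Fbln2, 9 of 9 tested entries were higher over time and 9 of 9 were lower in KD 24 h. For Fn1, 12 of 14 were higher over time and 12 of 14 in KD 24 h. Sparc was less uniform, with 3 of 8 tested entries called lower in KD 24 h. For Fbln1, 6 of 6 tested entries were lower in KD 72 h, while over time 2 of 8 were called lower, with values down to -1.20, where the entry used here had 0.24. The entry used and the next in line were close for Postn, at mean RPKM of 318 and 310, and for Olfml3, at 72.7 and 71.1. For Tnc they lay far apart, at 12.9 for the RefSeq mRNA and 108.5 for the next, a GenBank cDNA. With the next entry of each symbol, 5 and 4 of the 10 genes were called in KD 24 h and in KD 72 h. Genes on the opposite strand overlap Fn1 (Apol7d), Thbs1 (Gm29233) and Tnc (8030451A03Rik) in GENCODE release M21, and as no source states whether strand was used, reads of these pairs cannot be told apart.

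Other genes of the same matrix were followed by lists. Among 24 other matricellular genes, 11 could be tested over time in NC, of which 6 were higher and 0 were lower, where 9.19% of all entries were called. The highest fold changes were those of Tgfbi (2.40 ± 0.40, adjusted p = 0.0014), Spp1, the osteopontin gene (2.01 ± 0.24, adjusted p = 1.6e-04), and Ccn3 (1.85 ± 0.35, adjusted p = 0.0034). Among 22 other fibulin and elastic fibre genes, 8 of 16 tested were higher and 0 were lower, led by Ltbp2 (1.34 ± 0.31, adjusted p = 0.014), the lysyl oxidase gene Lox (1.26 ± 0.18, adjusted p = 5.0e-04) and Emilin1 (1.13 ± 0.27, adjusted p = 0.015). Of 16 matrix receptor genes tested, 4 were higher, among them the collagen-binding integrin subunit Itga11 (2.37 ± 0.29, adjusted p = 1.7e-04), Itgav and Itgb5, and 1 was lower, the thrombospondin receptor gene Cd47 (-0.64 ± 0.15, adjusted p = 0.013). Of 11 TGF-beta pathway genes tested, 1 was higher (Skil, 0.68 ± 0.12, adjusted p = 0.0030). Median log2 fold changes were 0.49, 0.58, 0.36 and 0.12 in these 4 lists. Some of the leading genes were low in NC 24 h, so their fold changes are imprecise. Their levels there were 0.56 ± 0.26 scaled RPKM (Tgfbi; SD, n = 6), 1.1 ± 0.56 (Ccn3) and 0.70 ± 0.14 (Ltbp2).

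The same lists were followed under KD, where 21.8% of all entries were called at 24 h. At that time, 2 of 11 other matricellular genes were higher, Ccn2 (1.26 ± 0.42, adjusted p = 0.043) and Ccn1 (0.64 ± 0.19, adjusted p = 0.025), and 2 were lower, the Sparc relative Smoc1 (-1.49 ± 0.28, adjusted p = 0.0029) and Fstl1 (-0.51 ± 0.17, adjusted p = 0.041). Of 17 fibulin and elastic fibre genes, 2 were higher (Emilin1 and Lox) and 2 were lower (Fbn1, the fibrillin gene, at -0.78 ± 0.16, and Loxl1). Of 15 receptor genes, 0 were higher and 3 were lower (Itga9, Itga6 and Lrp1). Of 11 TGF-beta pathway genes, 2 were higher, among them the inhibitory Smad gene Smad7 (1.29 ± 0.29, adjusted p = 0.0072), and 1 was lower, the coreceptor gene Tgfbr3 (-1.74 ± 0.32, adjusted p = 0.0026). Median values were -0.08, -0.20, 0.10 and 0.18.

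At 72 h, where 22.6% of all entries were called, 2 of 12 other matricellular genes were higher, Tnxb (1.21 ± 0.30, adjusted p = 0.011) and Spp1 (1.00 ± 0.15, adjusted p = 4.8e-04), and 5 were lower, led by Smoc1 (-1.88 ± 0.28, adjusted p = 4.0e-04), Ccn3 (-1.10 ± 0.33, adjusted p = 0.027) and the Sparc relative Sparcl1 (-0.84 ± 0.24, adjusted p = 0.022). Of 17 fibulin and elastic fibre genes, 1 was higher (Mfap2, 0.61 ± 0.15) and 2 were lower (Efemp2, -0.49 ± 0.12, and Mfap5, -0.44 ± 0.09). Of 17 receptor genes, 4 were higher, among them the integrin subunit Itgb3 (1.50 ± 0.34, adjusted p = 0.0064) and Cd47 (0.89 ± 0.16, adjusted p = 0.0015), and 1 was lower, Itga11 (-2.33 ± 0.37, adjusted p = 6.5e-04). Of 12 TGF-beta pathway genes, 0 were higher and 1 was lower (Tgfbr3, -0.86 ± 0.12). Median values were 0.07, -0.20, -0.24 and 0.11. Tnxb was low, at 0.62 ± 0.14 scaled RPKM (SD, n = 6) in KD 72 h and 0.23 ± 0.12 (n = 5) in NC 72 h.

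**Figure D4:**
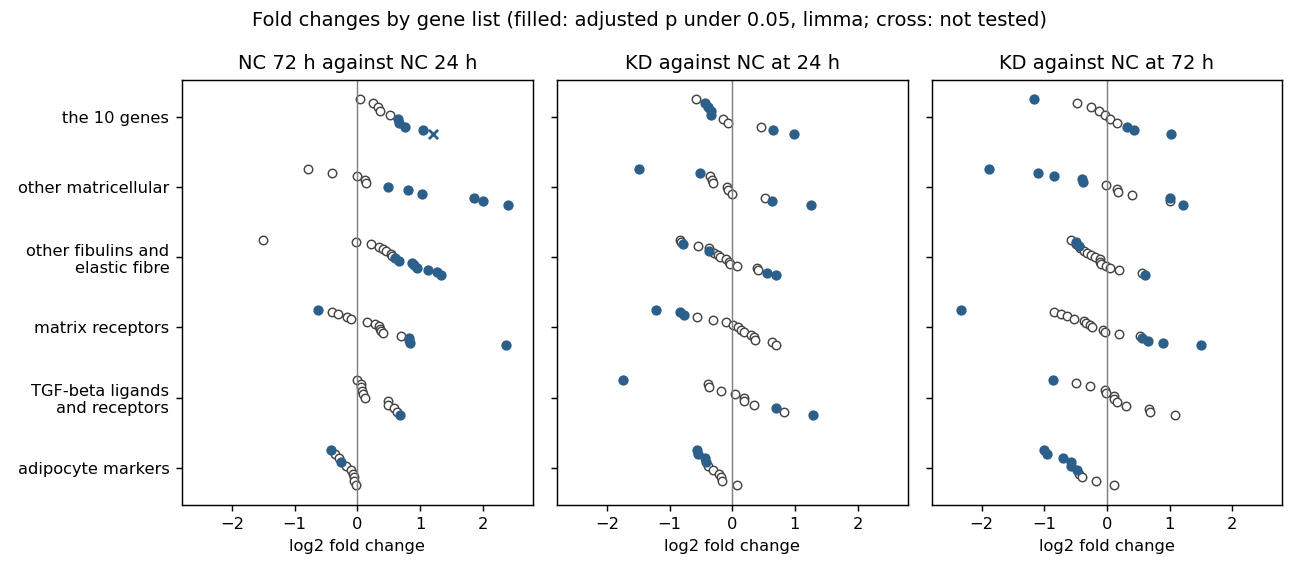
Log2 fold change of every tested gene in 6 lists, 1 point a gene, for the 3 comparisons, with filled points where the adjusted p-value of limma was under 0.05 and a cross for Olfml3 over time, which was not tested. Over time the called genes of the matricellular and elastic fibre lists all lie above 0, up to 2.40 for Tgfbi, while under KD the called genes of these lists lie on both sides. Called genes of the receptor list lie on both sides over time and under KD at 72 h, there from -2.33 for Itga11 to 1.50 for Itgb3.

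The genes whose pattern over the 23 samples was most like the mean of the 10 genes, each scaled to z-scores, were Col5a2 (Pearson r = 0.96), Lrrc32 (0.93), Pdgfrl (0.90), Pltp (0.90) and Ubd (0.90), out of 12691 genes. The samples share groups and libraries, and the values are a description. Within the set, Fbln2 followed that mean most closely (0.95), then Thbs2 (0.90) and Sparc (0.88), while Postn had 0.78, Olfml3 0.69, Tnc 0.60, Fn1 0.56, Fbln5 0.41, Thbs1 0.35 and Fbln1 -0.20, each gene being part of the mean it was set against.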

How the data were processed

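Transcripts were measured by BRB-seq, a pooled 3′ end method with barcoded oligo-dT priming. The authors aligned reads in the Genomatix suite and deposited RPKM for 168326 overlapping RefSeq, Ensembl and GenBank entries. Version, genome build, filters and strand handling are not given in the sources used here. The read totals were recovered from the steps of the RPKM values, of which 93.0% to 93.7% per library were whole within 0.02 read. In NC 72 h replicate 6 nearly all steps were even, and its total was divided by 2. Relative to counting noise, NC 72 h replicates 2 and 3 differed by 0.352 in squared terms, the lowest of 276 pairs, and the next pair by 1.94.

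An entry was tested when as many samples as the smallest group holds reached the worth of 10 reads at median depth, and 15 reads in total. A length was known for 115207 of the 168326 entries. For the others a length of 2 kb was assumed, so their read numbers in this filter are approximate. RPKM were scaled by a trimmed mean of log ratios (30% and 5% trimmed), and log2(scaled RPKM + 0.1) was fitted with limma 3.58.1 (R 4.3.3) with an intensity trend. P-values are two-sided with Benjamini-Hochberg adjustment over all entries, with calls under 0.05. Fold changes on this scale understate changes of low genes. Levels are RPKM scaled over all 4 groups, and each comparison was scaled on its own. Groups and replicate numbers came from the sample titles.

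The members and lists were chosen with earlier results of these data known. Named genes are the 10 members, up to 3 called genes in each direction per list and comparison with the largest change, and the 5 genes most like the members' mean, with Ctcflos and the adipocyte markers where they stand beside a result. Acta2, Dpp4 and Mrc1 fall outside this rule and were named after their values were seen. Alternatives were pseudocount, filter, scaling, entry, replicate block, averaging, clusters and leaving out each library. A listed gene is not reported here by name.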

Additional observations from a re-analysis of the deposited data

Results flagged for a closer look

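In 5 of 40 groups of samples, 1 value stood apart from the others of its group by Dixon's ratio at the 95% level, where chance flags about 1 group in 20. The level of Olfml3 in KD 24 h replicate 6 was 31.06 scaled RPKM, with the nearest library at 57.95. This was the shallowest library, and without it the KD fold change at 24 h was 1.14 on the log2 scale. Thbs1 in NC 72 h replicate 5 was at 27.82, with the nearest at 39.35. Thbs2 in NC 72 h replicate 4 was at 101.3, with the nearest at 92.49. In KD 72 h replicate 6, Fbln2 was at 158.1 (nearest 127.8) and Fn1 at 107.5 (nearest 88.64). NC 72 h replicates 4 and 5 and KD 72 h replicate 6 belong to the smaller cluster of libraries.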

How the results depend on the processing

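Counts of entries called over time, in KD 24 h, in KD 72 h and by the interaction were 4832, 11737, 12172 and 115, and counts of the 10 genes were 5, 6, 4 and 0. All counts of genes and values in this section include Olfml3 over time. Its difference was known at selection, so its call there is not a result. With 1 entry per gene, 1076, 2607, 2803 and 45 were called. With a replicate block, 2934, 8641, 8249 and 28 entries were called, and 2 of the 10 genes each in KD 24 h and KD 72 h. Deviations of same-numbered libraries correlated at -0.07 at 24 h and 0.03 at 72 h on average. Libraries of the same cluster in different groups averaged only 0.09, so this measure cannot settle whether the numbers pair the samples. Within the smaller cluster, 1626, 1326, 5812 and 1713 entries were called, with 2 of the 10 genes each in KD 24 h and KD 72 h, in fits of 4 samples, or 8 for the interaction. The larger cluster gave 870 entries and 1 gene (Postn) by the interaction. The deposited scale gave 773 entries and 1 gene (Thbs2) there, a pseudocount of 1 gave 240 entries, and each library as its own sample gave 183. Leaving out 1 library gave 3681 to 4721, 8894 to 14142, 9744 to 12050 and 53 to 175 entries, and 5, 3 to 6, 2 to 5 and 0 of the 10 genes. The lowest counts of genes came without KD 24 h or NC 24 h replicate 1 and without the averaged NC 72 h replicates 2 and 3.

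Of 970 values of the 10 genes under the alternatives, 872 kept direction and side of the threshold, 49 lost a call, 14 gained a call and 35 changed sign, and the cause was not tested. Over time the sign turned for Fbln5 with the block (-0.036) and in the larger cluster (-0.095), and in the smaller cluster for Tnc (-0.31) and Thbs1 (-0.35). In KD 24 h it turned for Thbs1 in the smaller cluster (-0.34). In KD 72 h it turned on the deposited scale for Fbln2 (0.12) and Fbln5 (0.21), in the larger cluster for Fbln5 (0.10) and in the smaller cluster for Postn (-0.24) and Fbln2 (0.080). For the interaction it turned for Tnc on the deposited scale (0.094) and in the smaller cluster for Tnc (0.40), Olfml3 (-0.075), Postn (-0.012), Thbs1 (0.47) and Fn1 (0.66). Leaving out 1 library turned Fbln5 over time (-0.086 to 0.29), Fbln1 in KD 24 h (-0.14 to 0.026), Postn (-0.038 to 0.16) and Fbln5 (-0.28 to 0.12) in KD 72 h, and Olfml3 (-0.12 to 0.10) and Tnc (-0.26 to 0.070) for the interaction. Depth limits Fbln1 and Fbln5, at 17.8 and 36.8 reads per library on average.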
